A study of Mus musculus with 4 samples.

Results

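The cells described here are the run 2 cells of the E11 and E14 hypothalamus libraries, chosen by the start of their names in the deposited count table. There were 4389 cells from E11 run 2 and 16794 from E14 run 2, or 21183 of the 43261 cells of the series, and no run 1 cell was used. The study sampled the hypothalamus of C57BL/6J mice of the genotype Rax-CreERT2::Ai14 before and after birth, to follow how its neurons arise from a labelled neuroepithelium. Rax, a gene of the early hypothalamic neuroepithelium, drives a Cre recombinase that tamoxifen switches on, and cells in which it has acted, with their descendants, make red tdTomato from the Ai14 allele. Both libraries carried the same alleles and the same tamoxifen treatment, on embryonic day 9 or 9.5 depending on the label, and both hold only live tdTomato-positive sorted cells, so neither library is an unlabelled or untreated control. The libraries are titled E11 and E14, with the ages E11.5 and E14.5 in another label. How many embryos were pooled, and what the run numbers stand for, is not given in the sources used here.

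The embryonic hypothalamus is built by neuroepithelial cells and radial glia, which line the third ventricle, divide there and give rise to neurons that leave the cycle and move outward. While they do so, progenitors pass from an early state, marked in many tissues by the RNA-binding protein LIN28 and its partners, to a later one marked by nuclear factor I proteins and glial genes. The young neurons then take on transmitter and neuropeptide identities and assemble axons and synapses.

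The E11 library held 72112614 unique molecular identifiers (UMIs, each a captured RNA molecule) and the E14 library 159172980, over 28879 genes. Median depth was 15369 UMIs per cell at E11 and 8448 at E14, and mitochondrial UMIs were 2.45% and 2.63%. The mixture of sexes differed: 24.7% of E11 cells and 70.7% of E14 cells had Xist and no Y-linked UMI. Both Xist and Y-linked UMIs were found in 4.76% of E11 cells and 7.25% of E14 cells. Of the cell barcodes, 16 occurred in both libraries. Marker genes of several other cell types were low, whereas those of red blood cells at E11 and of telencephalon were not and are given below. Of microglial genes, 9 of 9 were detected in each library, at a summed level of 1.72 counts per 1000000 UMIs (CPM) at E11 and 0.710 at E14. The summed levels were 10.3 and 6.35 CPM for 8 endothelial genes, 22.4 and 7.17 for 9 mesenchymal genes (with 1, Lum, at 0 UMIs at E14) and 8.15 and 4.62 for 9 pituitary and epithelial genes (with 1 at 0 in each library). Crx, a photoreceptor factor, had 0 UMIs in both libraries, and the 9 retinal and optic stalk genes together stood at 49.1 and 12.7 CPM. The part of such cells in the results was not tested.

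Each age had 1 library, so there was no replicate, no test between ages was possible, and age cannot be told apart from library. Counts were summed per gene and library and scaled to CPM. Values in parentheses after a level are 95% exact Poisson intervals, which cover counting error only. A gene was compared if it reached 5 CPM in at least 1 library, and it is called 2-fold higher or lower when the ratio with 5 CPM added to both levels reached 2; a fold printed for a gene is the plain ratio of its CPM. In summed libraries, fewer cells of a type and less RNA per cell cannot be told apart.

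Over all cells, 11358 genes were compared. At E14, 778 genes (6.85%) were 2-fold or more higher and 641 (5.64%) 2-fold or more lower, or 1419 (12.5%) in either direction, and the median log2 ratio was -0.03. Of the 778 higher and 641 lower genes, 685 and 563 were also called with each cell thinned to 2000 UMIs. Among Xist-positive cells without Y-linked UMIs 755 and 611 were also called, and among Xist-free cells with Y-linked UMIs 694 and 556. Among the genes with the highest ratios, Zcchc12, a transcriptional co-activator of brain, stood at 14.53 CPM (13.7 to 15.4) at E11 and 240.1 CPM (238 to 242) at E14. Chd5, a chromatin remodeller of neurons, stood at 2.19 CPM (1.86 to 2.56) at E11 and 85.0 CPM (83.6 to 86.4) at E14. Each was many times higher at E14, with intervals far apart. Caly, which encodes the vesicle protein calcyon, stood at 18.0 CPM at E11 and 168 at E14. The neuronal adhesion gene Ntm stood at 29.6 CPM at E11 and 227 at E14, and so was high at E14 too. Eef1a2, an elongation factor that replaces its paralog in mature neurons, stood at 7.93 CPM at E11 and 66.3 at E14. Among the genes with the lowest ratios were Crabp2 and Crabp1, which bind retinoic acid in the cytoplasm. Crabp2 stood at 347 CPM (343 to 351) at E11 and 28.6 CPM (27.8 to 29.5) at E14. Crabp1 was lower at E14 as well, at 113 CPM (110.3 to 115) at E11 and 7.14 CPM (6.73 to 7.56) at E14. Crabp2 was also lower among cells rich in neuron genes (the neuron range), at 563 CPM at E11 and 30.7 at E14.

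**Figure D1:**
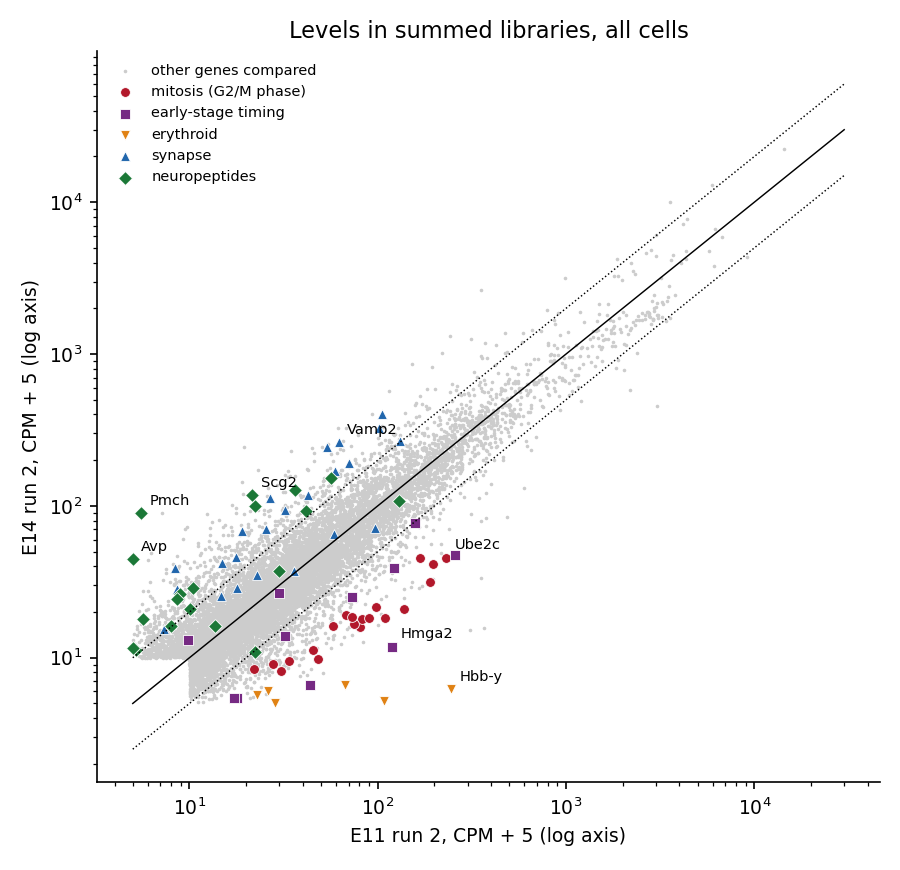
Level of each compared gene at E11 run 2 (x axis) and E14 run 2 (y axis), both as CPM of summed UMIs with 5 added, on log scales, with members of 5 lists coloured and 7 genes named; the solid line is equality and the dotted lines mark 2-fold. Mitosis, early-stage and erythroid genes lie mostly under the lower dotted line, and synapse and neuropeptide genes mostly above the upper one, with Pmch and Avp furthest up at the left.

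To compare levels among cells nearer in kind, each cell was placed on a scale from its UMIs in a pair of 10-gene panels. The panels were 10 neuron genes (such as Tubb3 and Stmn2) and 10 progenitor genes (such as Vim and Sox2). Cells with 75% or more of their panel UMIs from the neuron panel form the neuron range and cells with 25% or less the progenitor range. These are ranges on a scale and not cell types, and 607 cells (13.8%) at E11 and 1048 (6.24%) at E14 lay within 0.05 of a cut. The neuron range held 47.6% (exact Clopper-Pearson 95% interval 46.1 to 49.1%) of E11 cells and 86.4% (85.9 to 86.9%) of E14 cells. The progenitor range held 26.9% (25.6 to 28.2%) and 4.20% (3.90 to 4.51%), which is 1181 and 705 cells, and 25.5% and 9.40% lay between. The E14 library was thus mostly of the neuron range and the E11 library was mixed. Cells also lay differently inside the neuron range: 12.8% of E11 cells and 51.8% of E14 cells had a share of 0.95 to 1. Make-up and level are therefore not fully separated within a range. Cells of the progenitor range had medians of 79 progenitor and 10 neuron panel UMIs at E11 and of 73 and 12 at E14, at median depths of 17039 and 7982 UMIs. Cells of the neuron range had medians of 162 neuron and 15 progenitor panel UMIs at E11 and of 129 and 5 at E14, at median depths of 15515.5 and 8666 UMIs.

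**Figure D2:**
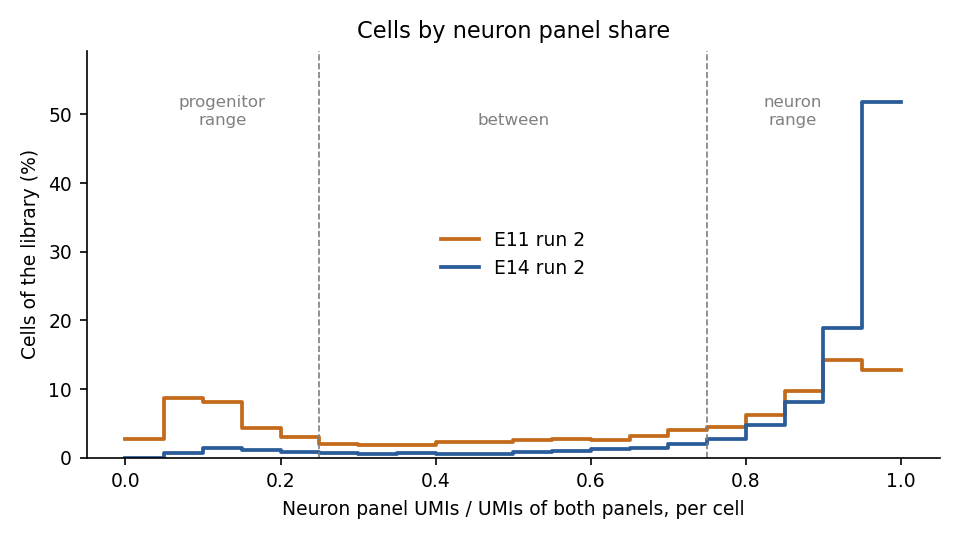
Distribution of cells over the neuron-panel share of panel UMIs (x axis, 0 to 1) as percent of each library's cells (y axis), for E11 run 2 and E14 run 2, with the cuts at 0.25 and 0.75 drawn as lines. The E11 cells spread over the whole scale, with 26.9% at or below the lower cut, while 86.4% of the E14 cells lie at or above the upper cut.

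Within the progenitor range 11061 genes were compared, of which 546 (4.94%) were 2-fold or more higher at E14 and 208 (1.88%) lower (6.82% in either direction), with a median log2 ratio of 0.03. Within the neuron range the numbers were 10991 compared, 473 (4.3%) higher and 397 (3.61%) lower (7.92% in either direction), with a median of -0.03. Panel genes are left out of the list counts within the ranges, since they set them. As a description of the panels themselves, 7 of the 10 neuron genes and 3 of the 10 progenitor genes were 2-fold or more higher at E14 in the progenitor range. In the neuron range 2 of the 10 neuron genes were higher and 3 of the 9 compared progenitor genes lower. Rtn1, a reticulon of the endoplasmic reticulum and a neuron panel gene, stood in the progenitor range at 90.2 CPM at E11 and 489.9 at E14. The part of these panel differences in the other values of the ranges was not tested.

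**Figure D3:**
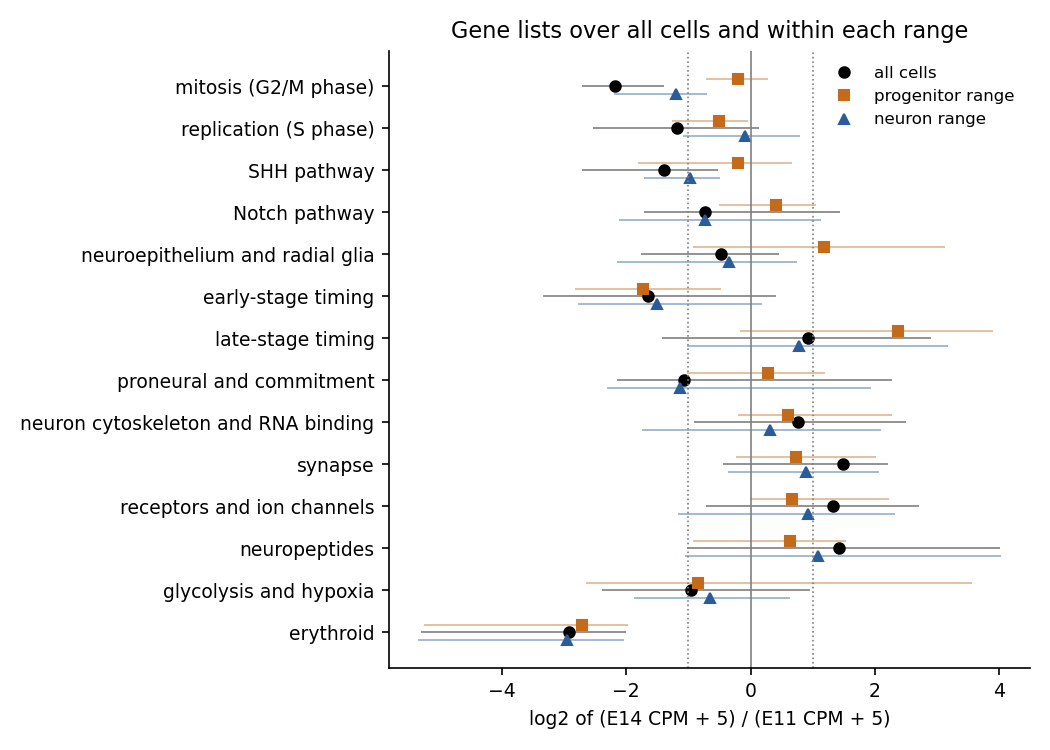
Log2 ratio of E14 to E11 (x axis, 5 CPM added) for the gene lists named on the y axis, over all cells and within the progenitor and neuron ranges; symbols are medians over compared members outside the range panels and lines run from the lowest to the highest member. Mitosis genes have a median of -2.18 over all cells and -0.20 in the progenitor range, while early-stage timing genes lie at -1.65 and -1.73.

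Genes of cell division were far lower at E14 over all cells and differed little within the progenitor range. All 20 mitosis genes of the list were 2-fold or more lower over all cells, with a median log2 ratio of -2.18, and their summed level was 1763 CPM at E11 and 303 CPM at E14. Within the progenitor range 0 of the 20 passed 2-fold in either direction, the median was -0.20, and the sums were 3596 and 3210 CPM. Ube2c, the ubiquitin-conjugating enzyme that works with the anaphase-promoting complex in the exit from mitosis, stood at 225 CPM (222 to 229) at E11 and 40.6 CPM (39.6 to 41.6) at E14 over all cells and at 370.0 CPM (362 to 378) at E11 and 382 CPM (367 to 397) at E14 in the progenitor range. Top2a, the topoisomerase that untangles chromosomes, stood at 162 CPM at E11 and 40.1 at E14 over all cells and at 342 CPM at E11 and 401 at E14 in that range, where E14 was the higher library. Cdk1, the kinase that drives entry into mitosis, stood there at 144 CPM at E11 and 154 at E14. The levels of these genes at both ages thus lay close in that range, with E14 the higher library for each. Of the 20 mitosis genes there, 5 had a ratio above 1 and 15 below. The ratios furthest below 1 in the range were those of Birc5, the survivin of the chromosomal passenger complex, at 299 CPM at E11 and 179.5 at E14, and of the proliferation marker Mki67, at 237 CPM at E11 and 151 at E14. Cells of the progenitor range gave 59.6% of the list's UMIs at E11 and 42.2% at E14, beside 29.2% and 3.99% of all UMIs of these libraries. Within the neuron range 13 of 16 compared mitosis genes were 2-fold or more lower, and the sums there were 324 and 74.3 CPM.

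Genes of DNA replication were mostly lower over all cells as well. Of 23 genes, 18 were 2-fold or more lower at E14 (8 with 20 CPM added in place of 5), with a median log2 ratio of -1.18 and sums of 1507 and 607 CPM. Within the progenitor range 23 of 23 had a ratio below 1, the median was -0.51, the sums were 3142 and 2159 CPM, and 1 passed 2-fold. With the ranges cut at a neuron-panel share of 0.1 and 0.9, 6 passed, and among Xist-free cells with Y-linked UMIs 4 did. The 1 gene was Ccne1, the cyclin of the entry into replication, at 47.6 CPM (44.7 to 50.6) at E11 and 17.0 CPM (13.96 to 20.6) at E14. Mcm3, a subunit of the replicative helicase, stood at 65.0 CPM at E11 and 10.8 at E14 over all cells and 169 CPM at E11 and 122 at E14 in the range. Rrm2, which supplies deoxynucleotides, stood at 167 CPM at E11 and 24.6 at E14 over all cells and 353 CPM at E11 and 214 at E14 in the range. Within the neuron range 1 of 17 compared replication genes was 2-fold or more lower, the median was -0.10, and the sums were 459.5 and 481 CPM. For Mcm3 and Rrm2, the gap between the ages was wide over all cells and under 2-fold in the progenitor range. Hist1h1b, a linker histone of dividing cells and no member of the list, stood at 361 CPM (357 to 366) at E11 and 10.8 CPM (10.3 to 11.3) at E14 over all cells and 853 CPM (841 to 866) at E11 and 101 CPM (93.7 to 109) at E14 in the progenitor range, which is 8.42-fold lower. Of the genes that set the pace of the cycle, Ccnd1, the cyclin of the early G1 phase, stood at 483 CPM at E11 and 79.8 at E14 over all cells but at 744 CPM at E11 and 576 at E14 in the progenitor range. Cdkn1c, an imprinted brake on the cycle that marks cells leaving it, stood at 2180.0 CPM at E11 and 572 at E14 over all cells and at 1704 CPM at E11 and 461 at E14 in the neuron range.

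The promoters of these lists are shown because nearly all their members were lower at E14 over all cells. From RefSeq's promoter table (build GRCm38.p6, 250 bases before and 50 after each start), 17 promoters of 17 genes matched the mitosis list and 23 promoters of 20 genes the replication list (Mcm7, Uhrf1 and Fen1 have 2 each), and Mcm4, Gins2, Ccne2, Ccna2, Aurkb and Tpx2 had no entry. The letters searched, on both strands, were TTTGAA and CCAAT, known from promoters of mitosis genes, and GCGGGAA and TTTCCCGC, known from promoters of replication genes. Every TTTCCCGC match overlaps a GCGGGAA match, since its reverse complement holds those letters. Capitals mark the matches in these examples, and ATTGG is CCAAT on the other strand.
Cdc20: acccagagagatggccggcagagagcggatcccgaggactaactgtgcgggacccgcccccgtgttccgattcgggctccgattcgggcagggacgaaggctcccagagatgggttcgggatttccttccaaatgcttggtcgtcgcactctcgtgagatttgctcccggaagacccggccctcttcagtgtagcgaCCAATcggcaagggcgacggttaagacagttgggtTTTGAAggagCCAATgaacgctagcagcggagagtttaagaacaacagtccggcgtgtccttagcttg
Mcm3: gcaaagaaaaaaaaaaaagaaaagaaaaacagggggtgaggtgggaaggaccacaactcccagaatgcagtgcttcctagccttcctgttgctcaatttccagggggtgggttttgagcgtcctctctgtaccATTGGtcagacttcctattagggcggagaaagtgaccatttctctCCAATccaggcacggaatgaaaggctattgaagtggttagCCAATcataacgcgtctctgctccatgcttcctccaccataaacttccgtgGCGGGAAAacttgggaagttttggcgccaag
The Cdc20 promoter lies at chr4:118437294-118437593 on the minus strand and holds CCAAT on both sides of a TTTGAA. The Mcm3 promoter lies at chr1:20820263-20820562 on the minus strand and holds the replication letters just after the start. TTTGAA was found in 11 of the 17 mitosis promoters (64.7%) against 17.9% of 32851 promoters in all, CCAAT in 15 (88.2%) against 37.4%, and both in 64.7% against 6.95%. Among the 23 replication promoters, CCAAT was found in 14 (60.9%), and the other mitosis motif in 3 (13.0%). GCGGGAA was found in 9 of 23 replication promoters (39.1%), both promoters of Mcm7 among them, and 0 of 17 mitosis promoters, against 4.60% of all. Cdc20, the activator of the anaphase ubiquitin ligase, stood at 84.9 CPM at E11 and 13.4 at E14 over all cells and 168 CPM at E11 and 148 at E14 in the progenitor range. These matches are descriptions of letters and not of bound sites.

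Genes that mark the early state of progenitors were mostly lower at E14 over all cells and within both ranges. Of 12 genes of this list, 11 were compared over all cells and 9 were 2-fold or more lower (5 with 20 CPM added), with a median log2 ratio of -1.65 and sums of 830 and 220 CPM. In the progenitor range 8 of 11 were 2-fold or more lower with a median of -1.73, and in the neuron range 8 of 11 with a median of -1.50. Hmga2, a chromatin protein of young stem cells, stood at 114 CPM (112 to 117) at E11 and 6.80 CPM (6.405 to 7.22) at E14 over all cells, 16.8-fold lower (15.8 to 17.9), and at 295 CPM (287 to 302) at E11 and 58.5 CPM (52.7 to 64.7) at E14 in the progenitor range. The E14 intervals lay far under the E11 intervals in both. Igf2bp1, which binds and stabilises mRNA, stood at 253 CPM at E11 and 42.6 at E14 over all cells, 311 CPM at E11 and 56.9 at E14 in the progenitor range and 182 CPM at E11 and 38.3 at E14 in the neuron range. Trim71, a ubiquitin ligase and RNA-binding protein, stood at 38.4 CPM (37.0 to 39.9) at E11 and 1.57 CPM (1.38 to 1.78) at E14 over all cells, at 37.0 CPM at E11 and 0.946 at E14 in the progenitor range and at 39.9 CPM at E11 and 1.56 at E14 in the neuron range. Lin28b, which blocks the maturation of let-7 microRNAs, stood at 68.2 CPM at E11 and 19.997 at E14 over all cells and 57.0 CPM at E11 and 9.77 at E14 in the progenitor range. Its paralog Lin28a was close to absent at E14, at 13.0 CPM (12.2 to 13.8) at E11 and 0.459 CPM (0.359 to 0.577) at E14 over all cells. Sall4, a factor of pluripotent cells, stood at 12.3 CPM at E11 and 0.459 at E14. Of the MYC family, which drives growth, Mycn stood at 24.9 CPM at E11 and 21.6 at E14, within 2-fold. Myc was low in both libraries, at 4.87 CPM at E11 and 8.12 at E14.

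The share of cells with a Hmga2 UMI gave the same order. Thinned to 2000 UMIs per cell, with 0 cells left out for depth, it was 39.1% (36.3 to 42.0%) of the progenitor range at E11 and 8.94% (6.94 to 11.3%) at E14, or 83.6% and 29.1% without thinning. In the neuron range the thinned shares were 2.87% and 0.634%.

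The let-7 family is the known partner of this list, and its sequences are shown with their matches in the list's transcripts. LIN28 proteins block let-7 maturation, and let-7 in turn binds the 3′ untranslated regions (UTRs) of LIN28, Hmga2, Trim71 and Igf2bp mRNA. RefSeq gives the mature forms, in which capitals mark the seed, bases 2 to 8, and the seed GAGGUAG is shared by every let-7 form in that table and by miR-98.
mmu-let-7a-5p: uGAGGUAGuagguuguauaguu
mmu-let-7b-5p: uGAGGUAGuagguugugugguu
mmu-let-7c-5p: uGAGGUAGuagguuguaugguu
mmu-let-7i-5p: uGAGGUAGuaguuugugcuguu
mmu-miR-98-5p: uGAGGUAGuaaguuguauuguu
The following sites come from the GRCm38 genome, with the match to the seed, CTACCTC, in capitals.
Hmga2: gccgacattcaatttCTACCTCagca
Trim71: aacattgcctaagtcCTACCTCagct
Lin28b: acccgggcgggaagtCTACCTCatgc
Igf2bp1: cagcagtgctattaaCTACCTCagcc
Hmga2's lies in the UTR at chr10:120364221-120364246, that of Trim71 at chr9:114512469-114512494, that of Lin28b at chr10:45381019-45381044 and that of Igf2bp1 at chr11:95959354-95959379, all on the minus strand. Each of these 4 genes has 4 matches in the longest annotated UTR. Of the 12 genes of the list, 9 have at least 1 match, beside 10.7% of all 10345 compared genes with a 3′ UTR. These 9 are the genes that were 2-fold or more lower over all cells, and Mycn, Myc and Dusp9 have 0. The list holds known partners of let-7, so this split is no test of let-7. These matches say nothing of whether let-7 acted on the mRNA here.

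Of 25 compared genes with 3 or more matches (the 4 just named included), 5 (20%) were 2-fold or more lower, against 5.70% of 9234 genes with 0 matches, and the median log2 ratios were -0.39 and -0.03. The median UTR lengths were 4899 and 1165 bases, so the sets differ in length as well. With 1 match 6.48% of 972 genes were 2-fold or more lower, and with 2 matches 6.14% of 114, both near the share with 0. Among UTRs over 3000 bases, 4 of 20 genes with 3 or more matches were 2-fold or more lower (median -0.43), the same 4 early-list genes, against 4.12% of 1409 genes with 0 matches (median -0.07). With the 4 early-list genes set aside, 21 remained, of which 15 had a ratio below 1, 1 was 2-fold or more lower and 1 was 2-fold or more higher, with a median of -0.27. The lower gene was Fignl2, an ATPase of the fidgetin family, at 16.1 CPM at E11 and 0.446 at E14. The higher gene was Trim67, a neuronal relative of Trim71 with 3 matches, at 10.1 CPM at E11 and 33.9 at E14. Both are named after their values were seen. Mature microRNAs are not captured by this chemistry. Mir99ahg, the long host transcript of the let-7c-1 and miR-99a genes at chr16:77236317-77773427, stood at 47.1 CPM (45.5 to 48.7) at E11 and 94.5 CPM (93.0 to 96.1) at E14. With 5 CPM added that ratio is within 2-fold, and a host transcript is no measure of mature let-7.

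Genes of the later progenitor state were mostly higher at E14 in the progenitor range. Outside the range panels, 7 of 10 genes of this list were 2-fold or more higher in the progenitor range and 0 lower, with a median log2 ratio of 2.38. Over all cells 3 of 9 were higher and 1 lower, and in the neuron range 4 of 9 were higher and 1 lower. Nfix, a nuclear factor I gene of late progenitors, stood in the progenitor range at 10.5 CPM (9.20 to 12.0) at E11 and 229 CPM (217 to 241) at E14, which is 21.7-fold higher. Its relative Nfia stood there at 35.2 CPM at E11 and 276 at E14. Nfib, the third of the family in the list, stood there at 96.3 CPM at E11 and 576 at E14. All 3 were 2-fold or more higher at E14. Zbtb20, a zinc finger factor of later progenitors, stood at 167 CPM at E11 and 808 at E14. Mt3, a metal-binding protein of astroglia, stood at 44.1 CPM at E11 and 414 at E14. Aldoc, the astroglial aldolase, was close to absent at E11, at 0.475 CPM (0.228 to 0.873) at E11 and 59.7 CPM (53.9 to 66.1) at E14. The nuclear factor I genes were higher in the neuron range as well. Nfix stood there at 1.22 CPM at E11 and 48.8 at E14. For Nfia the level was 7.51 CPM at E11 and 55.9 at E14, and for Nfib it was 12.9 CPM at E11 and 157 at E14. At 2000 UMIs per cell, 2.12% (1.37 to 3.11%) of the progenitor range at E11 and 35.3% (31.8 to 39.0%) at E14 had a Nfix UMI, or 13.0% and 70.2% without thinning. In the neuron range the thinned shares were 0.239% and 5.49%.

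Of 14 radial glia genes outside the panels, 7 were 2-fold or more higher in the progenitor range and 0 lower, 4 had a ratio below 1, and the median was 1.19, whereas over all cells 0 of 13 were higher and 5 lower. Fabp7, the brain lipid-binding protein of radial glia, stood in the progenitor range at 421 CPM (412 to 429) at E11 and 3706 CPM (3659 to 3754) at E14, which is 8.81-fold higher, and over all cells at 166 CPM at E11 and 231 at E14. Slc1a3, the glutamate transporter of radial glia and astrocytes, stood in the progenitor range at 28.9 CPM at E11 and 188 at E14. Ttyh1, a membrane protein of neural stem cells, stood at 55.7 CPM at E11 and 342 at E14. The secreted factor Ptn and its receptor were both higher at E14. Ptn stood in that range at 456 CPM at E11 and 1413 at E14. The receptor, Ptprz1, stood at 277 CPM at E11 and 735 at E14. Mfge8, a secreted glycoprotein, stood at 27.0 CPM at E11 and 140.1 at E14. Rax, the eye field and hypothalamus factor whose gene drives the Cre, was 2-fold or more lower at E14 over all cells, at 51.8 CPM at E11 and 12.2 at E14, and stood at 111 CPM (107 to 116) at E11 and 56.4 CPM (50.7 to 62.6) at E14 in the progenitor range, a ratio within 2-fold. The mRNA of the label, tdTomato, stood at 331 CPM at E11 and 704 at E14 over all cells. Of glia proper, the 8 oligodendrocyte precursor genes summed to 17.5 and 74.1 CPM in the progenitor range, where 3 of 5 compared were 2-fold or more higher and 0 lower. The 12 astrocyte and tanycyte genes summed to 131 and 198 CPM there, with 4 of 7 higher and 0 lower. Over all cells both sums were lower at E14. The oligodendrocyte precursor genes summed to 25.9 and 14.9 CPM, with 1 of 1 compared lower. The astrocyte and tanycyte genes summed to 118 and 92.4 CPM, with 2 of 3 lower and 0 higher. Gfap, the filament of astrocytes, had 1 UMI at E11 and 3 at E14 over all cells.

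**Figure D4:**
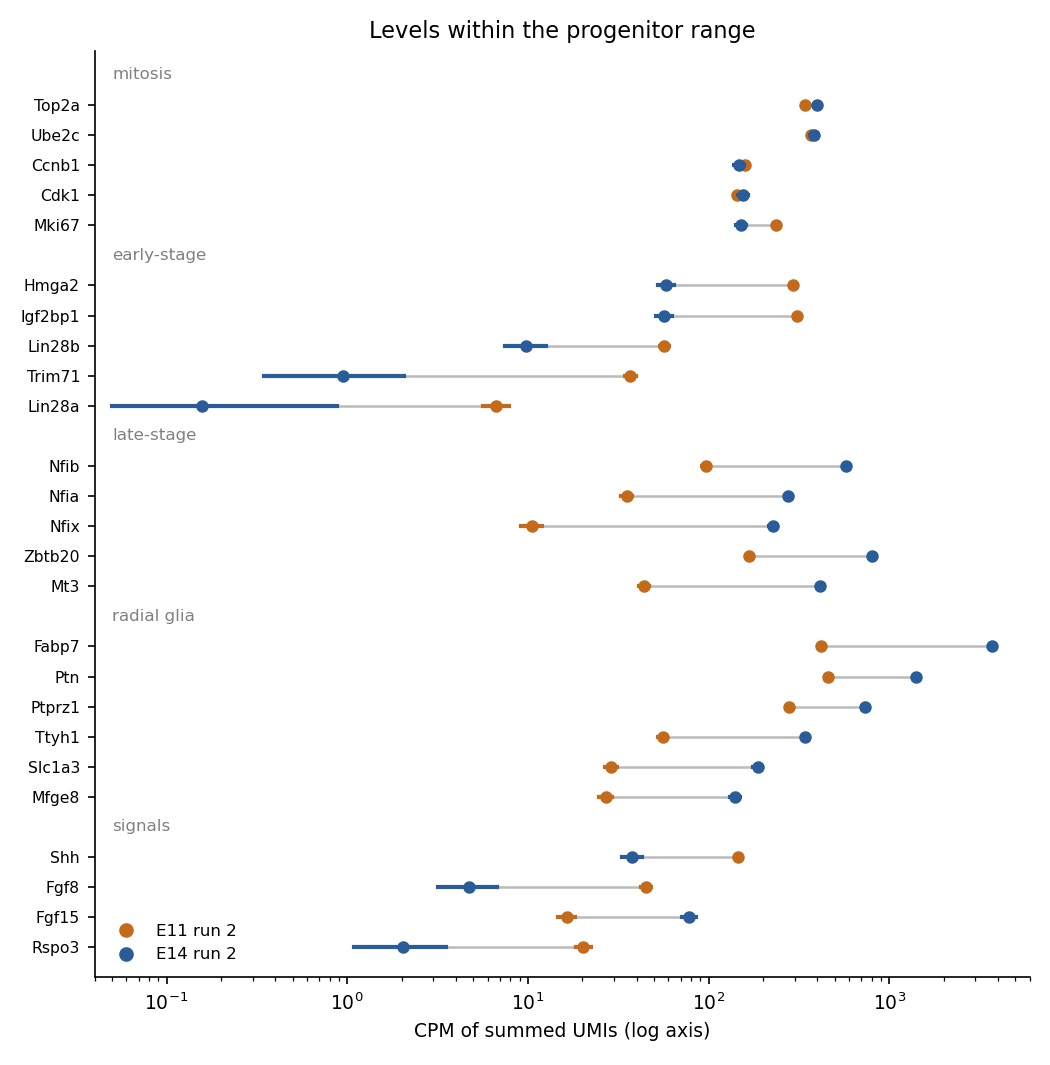
Level of named genes within the progenitor range at E11 run 2 and E14 run 2, in CPM on a log x axis, with 95% Poisson intervals as bars (that of Lin28a at E14 is clipped at 0.05) and grey lines joining the libraries. Early-stage genes such as Hmga2 and Trim71 lie left at E14, late-stage and radial glia genes such as Nfix and Fabp7 lie right, and mitosis genes such as Ube2c nearly coincide.

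Of the hedgehog genes, Shh, the Sonic hedgehog ligand of the hypothalamic midline and basal plate, stood at 78.4 CPM (76.4 to 80.5) at E11 and 7.68 CPM (7.26 to 8.13) at E14 over all cells, 10.2-fold lower, and at 146 CPM (140.5 to 151) at E11 and 37.8 CPM (33.2 to 42.9) at E14 in the progenitor range. Its receptor and target Ptch1 stood in that range at 200.3 CPM at E11 and 189 at E14. The transducer Smo stood at 107 CPM at E11 and 81.0 at E14. Over all cells 5 of 7 compared hedgehog genes were 2-fold or more lower (3 with 20 CPM added) and 0 higher, with a median log2 ratio of -1.39. In the progenitor range Shh was the 1 gene of 11 past 2-fold. Of all genes compared in that range 6.82% were past 2-fold, which stands beside each list count of the range in this paragraph. Of fibroblast growth factor ligands, Fgf8 stood in the progenitor range at 45.2 CPM (42.4 to 48.1) at E11 and 4.73 CPM (3.19 to 6.75) at E14. Fgf18 stood at 19.5 CPM (17.7 to 21.5) at E11 and 2.05 CPM (1.09 to 3.50) at E14. Both were lower at E14, with counting intervals that did not overlap. Over all cells, 32 E11 cells with 10 or more Fgf8 UMIs held 41.9% of them, and the intervals do not cover the sampling of cells. Fgf15, a ligand of dividing brain progenitors, was higher, at 16.4 CPM (14.7 to 18.2) at E11 and 78.3 CPM (71.6 to 85.5) at E14. The receptor genes were within 2-fold: Fgfr1 stood at 94.1 CPM at E11 and 138 at E14. For Fgfr3 the level was 37.4 CPM at E11 and 54.9 at E14. In all, 2 of 14 compared genes of that list, Fgf15 and Etv1, were 2-fold or more higher in the range, and 3, Fgf8, Fgf10 and Fgf18, were lower. Over all cells 5 of 16 WNT genes were 2-fold or more lower and 0 higher, or 8 with 1 CPM added and 2 with 20. Of 17 WNT genes 1 was 2-fold or more higher in the progenitor range, Dkk3, a secreted modulator, at 7.74 CPM at E11 and 52.2 at E14, and 2 were lower. These were Rspo1 and Rspo3, which strengthen WNT signals. Rspo1 stood at 11.15 CPM at E11 and 0.158 at E14, which at E14 was 1 UMI. Rspo3 stood at 20.3 CPM at E11 and 2.05 at E14. Of 11 genes of bone morphogenetic protein and TGF beta signalling, 1 was higher and 1 lower in the range. The ligand gene Tgfb2 stood at 8.21 CPM at E11 and 28.4 at E14. The inhibitor Smad7 stood at 39.4 CPM at E11 and 17.0 at E14.

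Genes of Notch signalling, in which a ligand on 1 cell holds its neighbour in the progenitor state, were compared outside the panels. Of 15 such genes, 6 were 2-fold or more lower and 1 higher over all cells, and 0 lower and 3 higher in the progenitor range. That stands beside 6.82% of all genes compared in the range past 2-fold in either direction. The ligand Dll1 stood at 82.6 CPM at E11 and 21.8 at E14 over all cells and 76.8 CPM at E11 and 75.2 at E14 in the range. The higher genes in the range were a receptor and a pair of targets of the pathway. Notch2, the receptor, stood at 22.9 CPM at E11 and 52.8 at E14. Hey1, a target, stood at 14.14 CPM at E11 and 33.4 at E14, and Hey2 at 2.56 CPM at E11 and 10.4 at E14. Rfng, a fringe enzyme that modifies Notch, was the gene higher over all cells, at 15.2 CPM at E11 and 50.2 at E14.

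Proneural genes, which commit cells to the neuron fate, were more often lower than higher. Over all cells 3 of 23 were 2-fold or more higher at E14 and 12 lower (7 with 20 CPM added), and in the neuron range 3 of 22 were higher and 12 lower. Nhlh2, a helix-loop-helix factor of newborn neurons, stood in the neuron range at 642 CPM (634 to 651) at E11 and 127 CPM (125 to 129) at E14. Neurod1, of the same class, stood there at 166 CPM (161 to 169.9) at E11 and 31.6 CPM (30.7 to 32.6) at E14. Both were high at E11 and low at E14. Ebf2, a factor of migrating young neurons, stood at 95.1 CPM at E11 and 15.1 at E14. Gadd45g, a stress-response gene of cells leaving the cycle, stood at 193 CPM at E11 and 54.3 at E14. The higher genes were Myt1l, Neurod2 and Neurod6. Myt1l, a repressor of non-neuronal genes, stood at 80.7 CPM (77.7 to 83.7) at E11 and 244 CPM (242 to 247) at E14. Neurod2 stood at 7.001 CPM at E11 and 30.2 at E14. Neurod6 was close to absent at E11, at 2.17 CPM at E11 and 22.5 at E14. Within the progenitor range 2 of 17 were higher, Sox4 and Myt1l, and 1 lower, Neurog1, at 6.07 CPM at E11 and 0.473 at E14. That stands beside 6.82% of all genes compared in the range past 2-fold in either direction.

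Synapse genes were mostly higher at E14 over all cells. Of 23 compared synapse genes, 17 were 2-fold or more higher over all cells and 0 lower, with a median log2 ratio of 1.48 and sums of 919.7 and 2641 CPM. Within the neuron range 11 of 23 were higher and 0 lower, with a median of 0.89. Among cells of the progenitor range 6 of 20 were higher, beside 4.94% of all genes compared there. Of 15 compared neuron cytoskeleton and RNA-binding genes outside the panels, 6 were 2-fold or more higher over all cells and 0 lower, with a median of 0.77. Within the neuron range 2 of the 15 were higher and 1 lower, with a median of 0.32. That stands beside 7.92% of all genes compared in the range past 2-fold in either direction. Of that list, Mapt, the microtubule protein tau, stood in the neuron range at 300.0 CPM (294 to 306) at E11 and 967 CPM (962 to 972) at E14, which is 3.22-fold higher. Map2, the tau relative of dendrites, stood there at 742 CPM at E11 and 482 at E14, a ratio within 2-fold. Vamp2, which drives vesicle fusion, stood at 85.4 CPM at E11 and 273 at E14. Syt4, a synaptotagmin of vesicles, stood at 86.4 CPM at E11 and 264 at E14. Rab3a, a GTPase on synaptic vesicles, stood at 186 CPM at E11 and 438 at E14. These vesicle genes were all higher at E14. The kinase gene Camk2b stood at 5.22 CPM at E11 and 37.7 at E14. Nefm, a neurofilament subunit, was the lower gene of the cytoskeleton list in that range, at 361 CPM at E11 and 104 at E14.

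Genes of receptors and ion channels were also mostly higher at E14 over all cells. In the progenitor range 1 of 9 was 2-fold or more higher and 0 lower, beside 6.82% of all genes compared there past 2-fold. Over all cells 14 of 23 were 2-fold or more higher (8 with 20 CPM added) and 0 lower, and in the neuron range 11 of 24 were higher and 1 lower. Gria1, an AMPA-type glutamate receptor subunit, stood in the neuron range at 16.4 CPM at E11 and 66.6 at E14. Gria2, of the same class, stood there at 91.7 CPM at E11 and 275 at E14. The NMDA-type subunit Grin2b stood at 8.31 CPM (7.36 to 9.34) at E11 and 61.9 CPM (60.6 to 63.3) at E14. All 3 were higher at E14. Grik2, a kainate receptor subunit, was the lower gene, at 38.3 CPM at E11 and 14.3 at E14. Gabra2, a GABA receptor subunit, stood at 8.07 CPM at E11 and 41.9 at E14. Gabra5, another, was close to absent at E11, at 1.39 CPM (1.02 to 1.85) at E11 and 25.2 CPM (24.3 to 26.0) at E14. Slc12a5, which exports chloride and so makes GABA inhibitory, stood at 10.5 CPM at E11 and 30.2 at E14. Slc12a2, which imports it, stood at 15.1 CPM at E11 and 12.9 at E14, so the exporter was higher at E14 and the importer within 2-fold. At 2000 UMIs per cell 14.99% (13.5 to 16.6%) of the neuron range at E11 and 40.1% (39.3 to 40.9%) at E14 had a Gria2 UMI, or 50.3% and 80.4% without thinning. In the progenitor range the thinned shares were 0.847% and 6.95%. Thra, the thyroid hormone receptor, was the 1 of 5 compared hormone receptor genes past 2-fold over all cells, at 109.6 CPM at E11 and 568 at E14, and stood at 189.6 CPM at E11 and 614 at E14 in the neuron range. Of all genes compared over all cells, 12.5% were past 2-fold.

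Neuropeptide genes, which define many hypothalamic neurons, were mostly higher at E14. Of 31 genes 19 were compared over all cells, and 15 were 2-fold or more higher and 1 lower, with a median log2 ratio of 1.42. With 20 CPM added 6 were higher, and 9 were among genes of at least 20 CPM in 1 library. In the neuron range 11 of 19 were higher and 1 lower, with a median of 1.08. Pmch, the precursor of melanin-concentrating hormone, stood at 0.555 CPM (0.396 to 0.755) at E11 and 84.7 CPM (83.3 to 86.2) at E14, which is 153-fold higher (112 to 214). Few cells held it: 76 E14 cells with 10 or more Pmch UMIs held 95.7% of them, and 1 cell had 697. At E11 there were 40 Pmch UMIs in 3 cells, and 38 of them were in 1 cell, so the E11 level rests on that cell. Avp, the vasopressin precursor, had 0 UMIs at E11 and stood at 39.7 (38.7 to 40.7) CPM at E14, at least 953-fold higher against a floor of 3 UMIs in the E11 library, with 95.1% of its UMIs in 29 cells. Npvf, the precursor of RF-amide peptides, had 0 UMIs at E11 and 6.55 (6.16 to 6.96) CPM at E14. That is at least 158-fold higher against the same floor, and 20 cells held 92.3% of the UMIs. For Pmch, Avp and Npvf, these bounds and intervals treat each UMI as independent. They do not cover the sampling of so few cells, so the folds between ages are less certain than printed. Crh, the precursor of corticotropin-releasing hormone, had 0 UMIs at E11 and 408 in 58 cells at E14, and Hcrt, of orexin, had 4 UMIs in 4 cells and 291 in 60. Oxt, the oxytocin precursor, had 71 UMIs in 12 cells at E11, 85.9% of them in 2 cells, and 46 UMIs in 44 cells at E14. Sst, the somatostatin precursor, stood at 31.4 CPM (30.1 to 32.7) at E11 and 121 CPM (119.8 to 123) at E14. At E11, 26 cells held 94.1% of the 2264 Sst UMIs, and 1 cell had 634. Cartpt, of the cocaine- and amphetamine-regulated transcript, stood at 17.3 CPM (16.4 to 18.3) at E11 and 94.4 CPM (92.9 to 95.9) at E14. Both were present at E11 and higher at E14. Trh, the thyrotropin-releasing hormone precursor, stood at 0.666 CPM at E11 and 12.9 at E14. The granin Scg2, which packs peptides into vesicles, stood at 16.6 CPM at E11 and 112 at E14. Pomc, the precursor of melanocortins and present early in arcuate neurons, stood at 125 CPM at E11 and 102 at E14 over all cells, a ratio within 2-fold, and was the gene 2-fold lower in the neuron range, at 238 CPM (233 to 244) at E11 and 112 CPM (110.0 to 114) at E14. Over all cells, 66 E11 cells with 10 or more Pomc UMIs held 82.3% of them, and 192 such E14 cells held 75.7%. The intervals of Sst, Cartpt and Pomc likewise do not cover the sampling of cells. Cck, the cholecystokinin precursor, was the lower gene over all cells, at 17.3 CPM at E11 and 5.95 at E14.

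**Figure D5:**
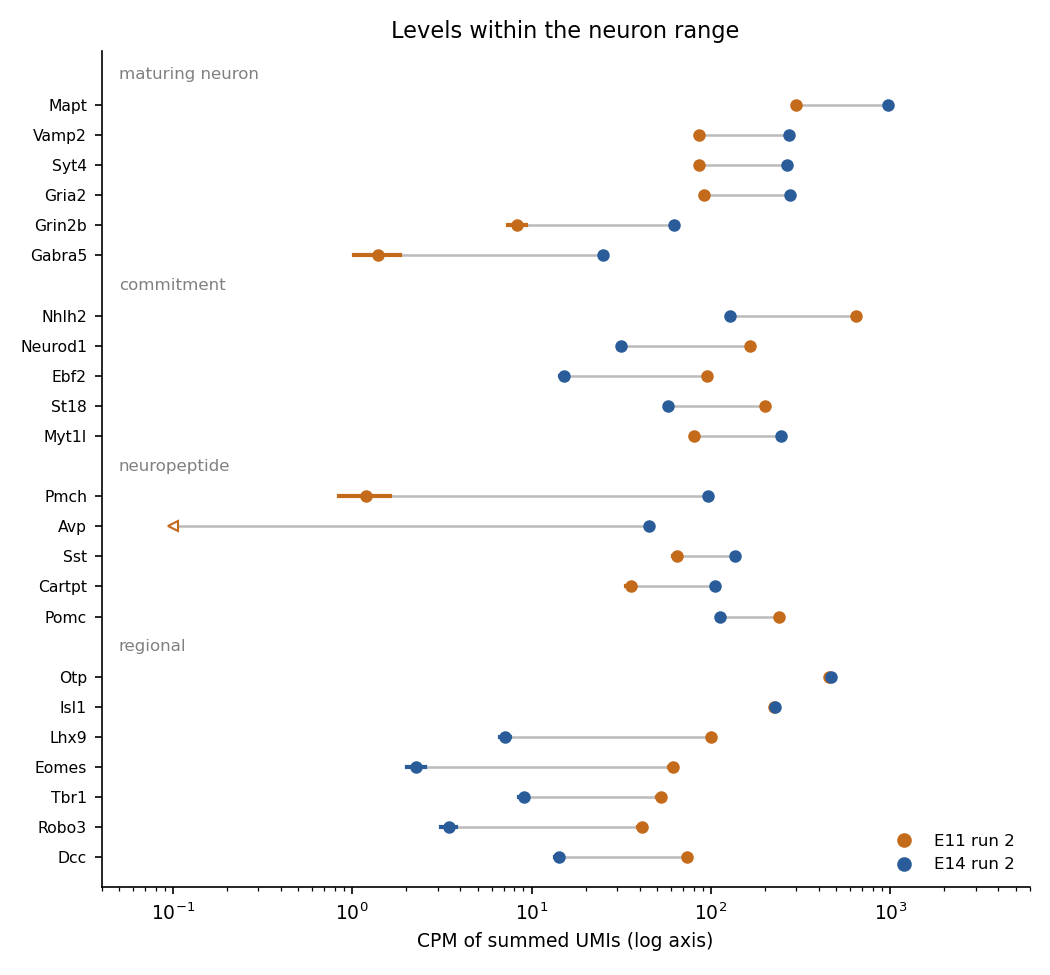
Level of named genes within the neuron range at E11 run 2 and E14 run 2, in CPM on a log x axis, with 95% Poisson intervals as bars, grey lines joining the libraries and an open triangle, drawn at 0.1, for 0 UMIs. Genes such as Mapt, Grin2b and Pmch lie right at E14, genes such as Nhlh2 and Lhx9 lie left, and Otp and Isl1 nearly coincide.

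Regional factors that define the hypothalamus, such as Nkx2-1, Otp and Isl1, were present in both libraries. Of 27 compared anterior and tuberal factors, 1 was 2-fold or more higher at E14 and 3 lower, beside 12.5% of all compared genes in either direction, with a median log2 ratio of -0.19 and summed levels of 1953 and 1963 CPM. Otp, which specifies paraventricular and arcuate neurons, stood in the neuron range at 455 CPM (448 to 462) at E11 and 468 CPM (464 to 472) at E14. Isl1, of arcuate neurons, stood there at 224 CPM (219 to 229) at E11 and 229 CPM (227 to 232) at E14. Nkx2-1, which marks the basal hypothalamus, stood at 177 CPM (172 to 181) at E11 and 167 CPM (165 to 169) at E14. The levels of these factors at both ages were close. Sim1, which acts beside Otp, stood there at 107 CPM at E11 and 42.8 at E14. Bsx, of arcuate peptide neurons, was the higher gene over all cells, at 4.85 CPM at E11 and 16.6 at E14. The lower genes were Rax, Foxd1 and Dbx1, factors of progenitors. Foxd1 stood at 146 CPM at E11 and 26.3 at E14. Dbx1 stood at 47.4 CPM at E11 and 9.65 at E14. In the progenitor range 2 of 17 compared were 2-fold or more higher and 2 lower, and Tbx3, of tuberal progenitors, was among the lower ones, at 24.4 CPM at E11 and 7.88 at E14. Of mammillary and posterior factors, 1 of 14 was higher in the neuron range and 6 lower, with a median of -0.82. Lhx9 stood at 101 CPM (97.1 to 104) at E11 and 7.08 CPM (6.64 to 7.53) at E14. Barhl2 was lower too, at 31.1 CPM at E11 and 4.50 at E14. Foxb1, a factor of mammillary neurons, was the higher one, at 2.88 CPM at E11 and 18.1 at E14. Of 17 factors linked to GABA neurons, 2 were higher and 1 lower over all cells, beside the same 12.5% of all compared genes. In the progenitor range 3 of 10 were higher and 0 lower. In the neuron range 1 of 17 was higher and 3 lower. Tshz2 was the higher one, at 51.0 CPM at E11 and 166 at E14. Lhx1 was among the lower ones, at 125 CPM at E11 and 35.1 at E14. The list counts within ranges in this paragraph stand beside the shares of all genes compared past 2-fold. These shares were 6.82% in the progenitor range and 7.92% in the neuron range.

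The 7 telencephalic markers summed to 204 and 251 CPM over all cells, so they were not near 0 in either library. The highest level of a member was 76.7 CPM at E11 and 108 at E14, in genes not named in this paragraph. Of 6 compared over all cells, 1 was 2-fold or more higher and 2 lower, and 4 had a ratio above 1. In the neuron range 1 of 7 was higher and 2 lower. Of all genes compared, 12.5% were past 2-fold over all cells and 7.92% in the neuron range. Within the neuron range Eomes, a factor of excitatory lineages, stood at 61.1 CPM (58.5 to 63.8) at E11 and 2.27 CPM (2.02 to 2.53) at E14. Tbr1, of the same lineages, stood at 52.6 CPM at E11 and 9.03 at E14. Both were lower at E14, whereas Neurod6 was higher. The part of telencephalic cells in the other results was not tested.

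Axon guidance genes differed in both directions. Over all cells 7 of 26 were 2-fold or more higher at E14 (4 with 20 CPM added) and 3 lower, and in the neuron range 4 of 25 were higher and 4 lower. These counts stand beside 12.5% of all genes compared past 2-fold over all cells and 7.92% in the neuron range. Robo3, a receptor of crossing axons, stood in the neuron range at 41.3 CPM (39.2 to 43.6) at E11 and 3.45 CPM (3.15 to 3.77) at E14. Dcc, the netrin receptor, stood there at 73.6 CPM (70.7 to 76.5) at E11 and 14.16 CPM (13.5 to 14.8) at E14. Cntn2, an adhesion molecule of early axons, stood at 84.9 CPM at E11 and 24.7 at E14. All 3 were lower at E14. Epha3, an ephrin receptor, was the other lower gene, at 80.7 CPM at E11 and 17.2 at E14. Among the higher genes were Nrp2 and Plxna4, parts of semaphorin receptors. Nrp2 stood at 57.0 CPM at E11 and 121 at E14. Plxna4 stood at 10.9 CPM at E11 and 32.4 at E14.

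Of 22 compared glycolysis and hypoxia genes, 10 were 2-fold or more lower at E14 over all cells (5 with 20 CPM added) and 0 higher, 3 had a ratio above 1, with a median log2 ratio of -0.96. In the progenitor range 6 of 21 were lower and 1, Aldoc, higher, and in the neuron range 3 of 21 were lower. Of all genes compared, 1.88% were lower in the progenitor range and 3.61% in the neuron range. Slc16a3, which exports lactate, stood at 39.2 CPM (37.8 to 40.7) at E11 and 3.40 CPM (3.12 to 3.70) at E14 over all cells, 62.2 CPM at E11 and 5.67 at E14 in the progenitor range and 25.5 CPM at E11 and 3.32 at E14 in the neuron range. Ldha, which makes lactate, stood at 594 CPM at E11 and 126 at E14 over all cells and 1114 CPM at E11 and 615 at E14 in the progenitor range, a ratio within 2-fold there. Vegfa, the vessel growth factor that responds to low oxygen, stood at 45.8 CPM at E11 and 11.45 at E14 over all cells. The glucose transporter gene Slc2a1 stood at 34.7 CPM at E11 and 7.80 at E14.

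Imprinted genes, expressed from 1 parental allele, went both ways. Of 25 compared, 3 were 2-fold or more higher over all cells and 4 lower, beside 6.85% and 5.64% of all genes compared. Ndn, the necdin gene of the Prader-Willi region, stood at 349 CPM (345 to 354) at E11 and 2626 CPM (2618 to 2634) at E14, and at 78.5 CPM at E11 and 520.5 at E14 in the progenitor range and 609 CPM at E11 and 2837 at E14 in the neuron range. At 2000 UMIs per cell 23.7% (22.4 to 25.0%) of E11 cells and 87.7% (87.2 to 88.2%) of E14 cells had a Ndn UMI, or 45.1% and 97.0% without thinning. Within the progenitor range the thinned shares were 10.9% and 56.9%, and within the neuron range 35.5% and 91.0%. Neither range is known to lack the gene, so no background share can be given. The part of RNA from other cells in these shares was not tested. Nnat, the neuronatin gene, stood at 3548 CPM at E11 and 10036 at E14. Snrpn, of the same region as Ndn, stood at 242 CPM at E11 and 631 at E14. Ndn, Nnat and Snrpn were the 3 higher genes, and Cdkn1c, Kcnq1ot1, Grb10 and H19 the 4 lower ones. Kcnq1ot1, the long RNA that silences the Cdkn1c region, stood at 645 CPM at E11 and 227 at E14 over all cells. Grb10, a growth inhibitor, stood at 141 CPM at E11 and 61.1 at E14. H19, a long RNA, stood at 19.4 CPM at E11 and 3.22 at E14.

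RNA of red blood cells differed sharply between the libraries. All 6 compared genes of the 9 erythroid genes were 2-fold or more lower at E14, and the list summed to 473 and 6.77 CPM. The sums were near each other across ranges, at 436 and 7.72 CPM in the progenitor range and 486 and 6.66 in the neuron range. Hbb-y, an embryonic beta globin, had a UMI in 97.3% of E11 cells and 1.11% of E14 cells, at 241 CPM (237 to 244) at E11 and 1.22 CPM (1.05 to 1.40) at E14. Thinned to 2000 UMIs per cell these shares were 39.3% and 0.232%. Hbb-bh1, another embryonic globin, stood at 23.4 (22.3 to 24.6) CPM at E11 and had 0 UMIs at E14, at least 1244-fold lower against a floor of 3 UMIs in the E14 library. Alas2, the heme synthesis enzyme of erythroid cells, had 30 UMIs at E11 and 2 at E14. Globin UMIs were thus at a like level in both E11 ranges, and their part in the other results was not tested.

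Some genes outside these groups were lower at E14 in both ranges. Lars2, the mitochondrial leucine tRNA synthetase, stood at 154 CPM at E11 and 23.5 at E14 in the progenitor range and 164 CPM at E11 and 23.6 at E14 in the neuron range. Of 14 compared genes of stress and early response, which dissociation can also induce, 5 were 2-fold or more lower over all cells and 1, the heat shock gene Hspa1a, higher. Of all genes compared, 5.64% were lower and 6.85% higher. Fos stood at 395 CPM at E11 and 135 at E14. Egr1 was lower too, at 102 CPM at E11 and 32.0 at E14. Ribosomal protein genes made up 16.6% of UMIs at E11 and 11.4% at E14. The part of sample handling in these values was not tested.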

How the data were processed

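Single cells of mouse hypothalamus, sorted for live tdTomato signal, were profiled on the 10x 3′ platform with version 3 chemistry, per the labels' protocols. Cell Ranger 3.0.2, Seurat and the build mm10 (GRCm38) are named with no role or order, per the submitters' processing notes, and the filter on cells and the treatment of doublets are not given in the sources used here. The authors deposited 1 table of raw UMI counts, 28879 genes by 43261 cells, in which 0 values were negative or not whole. Its counts carry no scaling by the authors.

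Cells of E11 run 2 and E14 run 2 were taken by name, UMIs were summed per gene and library, and sums were divided by the library's total to give CPM. The E11 library summed to 72112614 UMIs and the E14 library to 159172980, so that 3 UMIs, taken as the floor for a count of 0, are 0.0416 and 0.0188 CPM. Intervals are exact (Poisson for CPM, Clopper-Pearson for shares, 95%) and cover counting error only. Genes with at least 5 CPM in 1 library were compared as the log2 ratio with 5 CPM added, and 2-fold was the call. Shares of cells with a UMI were taken after thinning each cell to 2000 UMIs. With 1 library per age no test between ages was made. No doublet caller was run, and an alternative left out the 5% of cells with most UMIs. Other alternatives changed the CPM added, the filter, the scaling, the depth, the cuts of the ranges and the sexes kept.

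Genes named are the 20 with the highest and the 20 with the lowest log2 ratio among genes with at least 20 CPM in 1 library, without sex-linked, mitochondrial, ribosomal protein and unnamed genes (clones included), of which the text gives a part, and members of 39 lists (593 genes, 590 in the table) chosen by size, level or role. The members and lists were chosen with earlier results of these data known. UTRs are the longest annotated 3′ UTR among each gene's coding transcripts in the GRCm38 annotation; promoters and microRNAs are from RefSeq, GRCm38.p6. Genes with near-identical copies, such as Hba-a1 and Hba-a2, or overlapping neighbours may share UMIs. The scripts were tested on simulated counts and used Python 3.11.15, numpy 2.4.6, scipy 1.17.1, pandas 2.3.3 and matplotlib 3.10.9. Some list genes are counted in their lists and not reported here by name.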

Additional observations from a re-analysis of the deposited data

How the results depend on the processing

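Of 465 named and list genes compared over all cells, 238 were past 2-fold, and 0 of these reversed under any alternative; with 20 CPM added 91 came under 2-fold, and under each other alternative 0 to 19 did. With 1 CPM added 1152 genes were lower over all genes, against 641, and 8 WNT genes, against 5. With 20 CPM added 292 genes were higher and 211 lower. The lists over all cells, panel genes included, then counted 8 replication (18 with 5 CPM added), 5 radial glia (9), 7 proneural (12), 5 early-stage (9), 3 SHH (5), 2 WNT (5) and 5 glycolysis genes (10) lower, and 8 receptor and channel (14), 6 neuropeptide (15) and 4 axon guidance genes (7) higher. With at least 20 CPM in 1 library 9 neuropeptide genes were higher and 3 WNT genes lower; these shifts follow from the larger added value and the fewer genes compared. Of the calls, 54.8% were higher at E14, against 46.3% with a total without mitochondrial, ribosomal protein and hemoglobin genes and 58.1% with 20 CPM added; with 1 CPM added it was 50.3%.

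With cuts at 0.1 and 0.9 the neuron range held 27.0% of E11 cells and 70.7% of E14 cells and the progenitor range 11.6% and 0.798%, and with 1 cut at 0.5 these were 62.8%, 92.8%, 37.4% and 7.34%. Among Xist-positive E11 cells without Y-linked UMIs the neuron and progenitor ranges held 43.4% and 30.4%. Among Xist-free cells with Y-linked UMIs they held 49.2% and 25.5% at E11 and 84.6% and 5.54% at E14. The difference between ages in the share of all cells with a UMI, E14 minus E11, was -7.34 points for Hmga2, 4.59 for Nfix, 16.0 for Gria2 and 61.0 for Ndn at 1000 UMIs per cell, and -23.3, 12.8, 43.5 and 61.3 at 5000, where 41 E11 and 903 E14 cells were left out. Within the progenitor range, alternatives chosen after seeing the data gave 6 replication genes lower with cuts at 0.1 and 0.9, and 4 replication genes and 1 mitosis gene lower in Xist-free cells with Y-linked UMIs; the cause was not tested. No paired analysis was possible because each age had 1 library, so no pairs of libraries could be formed.

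The depth of 72112614 and 159172980 UMIs gives narrow counting intervals, but these say nothing of the spread between embryos or libraries, which could not be measured. Genes at a few UMIs, such as Gfap, cannot be placed. The ranges rest on panels of 10 genes each and hold cells of more than 1 kind.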
